A study of Mus musculus with 4 samples.

Results

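RANK is a receptor of the tumour necrosis factor receptor superfamily on medullary thymic epithelial cells (mTECs), and its ligand RANKL, made in the thymus by T-lineage and innate lymphoid cells, drives NF-kB signalling and the formation of mTECs that express Aire. Aire lets mTECs transcribe genes otherwise restricted to other tissues, so that developing T cells that recognise those products are removed or diverted. Cortical thymic epithelial cells (cTECs) support earlier T cell stages, and further mTEC types take on programs of tuft, microfold, muscle, skin, ciliated or gut epithelium and are known as mimetic cells. The comparison asked how a RANKL-neutralizing antibody changes thymic epithelium when CD40, a related receptor, is intact. It covered 17382 of the 28055 cells kept in the series: 10218 of WT-Control and 7164 of WT-RANKL-Ab, where a kept cell had 200 genes or more and no more than 25% of its unique molecular identifiers (UMIs) from mitochondrial genes. Both groups were wild-type C57BL/6 mice aged 6 weeks, given 5 mg/kg of control IgG or of the antibody 2 weeks before collection. EPCAM+ CD45- cells sorted from 3 pooled mice gave 1 droplet library per group, so every interval below covers counting error within a library and none covers variation between mice. Intervals of gene levels and ratios treat the UMIs of a class as independent counts. They leave out differences between its cells, and are too narrow where few cells hold most UMIs.

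The kept cells held 95277834 UMIs in WT-Control and 48640841 in WT-RANKL-Ab, with medians of 7622 and 6086 UMIs, 2456 and 2321 genes, and 2.32% and 2.82% mitochondrial UMIs per cell. Cells under 2000 UMIs made up 12.3% of WT-Control and 17.3% of WT-RANKL-Ab. The libraries shared 107 barcodes, and leaving these out moved no share and no gene count by more than its counting interval or 1.5 times. Each cell was thinned to 1000 UMIs and scored on marker genes of 20 classes, and a cell took its best class at a score of at least 0.25 and a lead of 0.05. The classes are therefore score ranges, named below by the cell type that they resemble. No doublet caller was run, and cells with both thymocyte and cTEC markers were kept apart as a class of their own.

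Aire+ mTEC-like cells, gated on Aire, Fezf2, Cd80, Cd86, Cd52, Calcb and Fgf21, were scarce after the antibody. They made up 16.6% (15.9 to 17.4) of WT-Control cells and 2.52% (2.16 to 2.92) of WT-RANKL-Ab cells, a log2 ratio of shares of -2.72 (-2.96 to -2.49). Early Aire-lineage mTEC-like cells, gated on Hes6, Utf1, Tmem158 and Nkx6-2, held 6.79% (6.29 to 7.31) of WT-Control cells and 4.03% (3.57 to 4.53) of WT-RANKL-Ab cells (-0.75 (-0.96 to -0.54)), short of 2-fold, but passed it with classes called on all UMIs (-1.23). Cycling TEC-like cells, the transit-amplifying class that expresses Mki67 and Top2a, fell from 3.04% to 1.14% (-1.41 (-1.80 to -1.05)). CCL21+ mTEC-like cells, which make the chemokine that draws positively selected thymocytes into the medulla, held the largest share of the named classes in both libraries. Their share was 29.6% in WT-Control and 46.1% in WT-RANKL-Ab, a log2 ratio of 0.64 (0.56 to 0.71) that stayed under 2-fold. Per 100 CCL21+ mTEC-like cells there were 56.3 Aire+ cells in WT-Control and 5.47 in WT-RANKL-Ab, and 23.0 and 8.75 early Aire-lineage cells. Unless said otherwise, shares are of cells with at least 1000 UMIs (9648 and 6672), and since they add up within a library, a fall in a class raises the others.

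Of the thymic epithelial classes, cTEC-like, progenitor-like, tuft-like and muscle-like cells rose past 2-fold. cTEC-like cells, gated on genes of cortical function such as the thymoproteasome subunit Psmb11 and the protease Prss16, held 1.70% (1.45 to 1.98) of WT-Control cells and 9.47% (8.78 to 10.2) of WT-RANKL-Ab cells (2.48 (2.23 to 2.74)). Progenitor-like cells, gated on Pdpn, Dcn, Fmod, Fst, Ackr4, Serpinf1 and Ces1d, held 0.715% (0.557 to 0.904) of WT-Control cells and 3.36% (2.94 to 3.82) of WT-RANKL-Ab cells (2.23 (1.84 to 2.64)). Markers of that gate other than Pdpn were known from earlier results of these same libraries. Tuft-like cells, which carry the taste-type signalling genes Trpm5 and Gnat3, held 3.54% (3.18 to 3.93) of WT-Control cells and 7.40% (6.79 to 8.06) of WT-RANKL-Ab cells (1.06 (0.86 to 1.27)). Their number per 100 CCL21+ mTEC-like cells was 12.0 and 16.1, so against that class the tuft-like gain was under 2-fold. The log2 ratio of tuft-like shares also came to 0.97 with classes called on all UMIs and to 0.90 with thymic epithelial classes as denominator, both short of 2-fold. Per 100 CCL21+ cells there were 5.75 and 20.6 cTEC-like cells and 2.42 and 7.29 progenitor-like cells.

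Of the mimetic classes other than tuft-like cells, 4 fell past 2-fold. Microfold-like cells, which resemble the antigen-sampling epithelium of the gut, fell from 2.36% to 0.734% (-1.69 (-2.16 to -1.24)), and enterohepatic-like cells from 1.61% to 0.255% (-2.66 (-3.47 to -1.93)). Keratinocyte-like cells fell from 1.20% to 0.525% (-1.20 (-1.79 to -0.64)), and ciliated cells from 0.529% to 0.0899% (-2.56 (-4.07 to -1.33)). Neuroendocrine-like cells, which express the secretory granule protein Chga, showed no detectable difference at this depth, with 30 and 25 cells (0.27 (-0.56 to 1.08)), and muscle-like cells rose on 8 and 15 cells (1.44 (0.11 to 2.88)), though not with classes called on all UMIs (0.93). Several of these classes were small: the ciliated class held 51 and 6 cells and the enterohepatic class 155 and 17. The log2 ratio of ciliated cells became -4.56 with a minimum score of 0.35, which left 1 cell in WT-RANKL-Ab, and that of enterohepatic cells -3.65 among cells with at least 2000 UMIs.

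Thymocyte-like cells, which the sort on CD45- cells should remove, rose from 0.477% to 2.58% (2.43 (1.96 to 2.94)). Cells with both thymocyte and cTEC markers, the pattern of thymic nurse complexes or of joined droplets, rose from 0.228% to 1.62% (2.83 (2.16 to 3.56)), with median UMIs of 25722 and 20992. The share without a class was 26.2% in WT-Control and 15.3% in WT-RANKL-Ab, and 4.04% and 3.97% lay between classes. Cells near the minimum were counted by their score for a class, whatever class they were called. Within 0.05 of it on the Aire+ score lay 454 and 78 cells above and 927 and 181 below in WT-Control and WT-RANKL-Ab. The same counts were 444 and 345 above and 572 and 561 below on the CCL21+ score. They were 63 and 144 and 154 and 282 on the cTEC score, and 113 and 205 and 96 and 154 on the progenitor score. Median UMIs of Aire+ cells were 11164 and 2841 and of early Aire-lineage cells 13122 and 7096. They were 12651 and 2400 in ciliated, 7331 and 1751 in enterohepatic-like and 7068 and 2657 in microfold-like cells, against 6172.5 and 6487 in CCL21+ cells. The libraries thus differed in depth within several of the classes that fell, and the part of depth in the shares was not tested. With classes called on all UMIs, without thinning, the cells under 1000 UMIs were included (10218 and 7164 cells), so the cell set differed as well. The shares were then 23.3% and 3.89% for Aire+ cells, 7.30% and 3.11% for early Aire-lineage cells, 33.5% and 48.9% for CCL21+ cells, 4.22% and 8.26% for tuft-like cells, 1.53% and 8.10% for cTEC-like cells and 1.08% and 5.04% for progenitor-like cells.

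**Figure D1:**
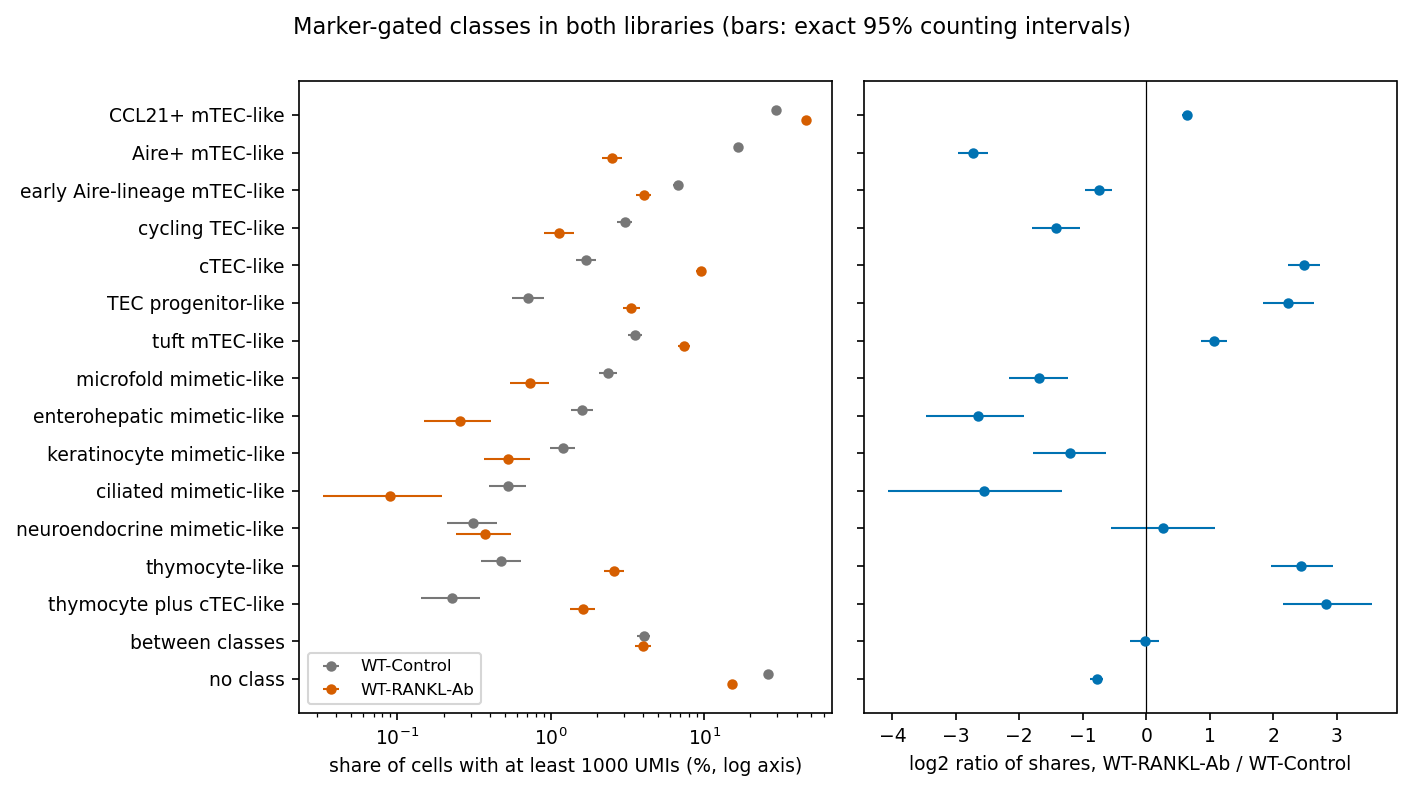
Shares of cells by marker class in WT-Control and WT-RANKL-Ab, in percent of cells with at least 1000 UMIs, with exact 95% counting intervals. Aire+ mTEC-like cells stand at 16.6% and 2.52%, and cTEC-like cells at 1.70% and 9.47%.

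Within classes, more genes fell than rose after the antibody, except among cycling cells, and in progenitor-like cells the balance depended on the processing. UMIs of all cells of a class were summed per library and scaled to counts per 1000000 UMIs of that class (CPM), and a gene with 50 or more UMIs over the pair of libraries was counted as changed at 2-fold after 10 CPM had been added to both levels. All log2 ratios of genes below are on that scale, WT-RANKL-Ab over WT-Control, with 95% intervals, and of paired levels the first is that of WT-Control. Past 2-fold were 22 (0.171%) of 12886 genes higher and 120 (0.931%) lower in CCL21+ mTEC-like cells, and 62 (1.23%) of 5060 genes higher and 84 (1.66%) lower in progenitor-like cells. The counts were 14 (0.146%) of 9615 genes higher and 159 (1.65%) lower in cTEC-like cells, and 21 (0.240%) of 8755 genes higher and 97 (1.11%) lower in tuft-like cells. In the classes that shrank they were 110 (0.805%) of 13663 genes higher and 388 (2.84%) lower in Aire+ mTEC-like cells, and 535 (6.31%) of 8480 genes higher and 343 (4.04%) lower in cycling cells. The median log2 ratio over all genes was 0.07 in CCL21+, 0.13 in progenitor-like, 0.10 in cTEC-like, 0.10 in tuft-like, -0.04 in Aire+ and 0.12 in cycling cells. Scaling by trimmed means (TMM) shifted cycling cells by 0.32 and turned their balance, to 282 higher and 561 lower, while progenitor-like cells had 40 higher and 95 lower. The balance of progenitor-like cells turned to 164 higher and 103 lower with 1 CPM added, 106 and 87 by the mean over cells and 91 and 57 at the higher minimum score.

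Part of each list of falling genes was common to the whole library. In all 6 classes 9 genes fell and 1 rose, and they were singled out after their values were seen. Among those that fell were Cox17, a copper chaperone of cytochrome oxidase, Uqcr11, a subunit of respiratory complex III, the MHC class I-like gene H2-Q4, the ribosomal protein genes Rpl36, Rpl37, Rps21 and Rps29, and Gm10076. Over all cells, Cox17 stood at 226 CPM in WT-Control against 35.1 CPM in WT-RANKL-Ab, with log2 ratios of -2.64 to -1.81 across the classes. H2-Q4 stood at 157 CPM in WT-Control against 41.7 CPM in WT-RANKL-Ab (-2.48 to -1.89), and Rpl36 at 1743 CPM in WT-Control against 487 CPM in WT-RANKL-Ab (-2.23 to -1.78). The riser was Gm9493, at 30.4 CPM in WT-Control against 123 CPM in WT-RANKL-Ab (1.15 to 2.29). The libraries of Cd40-/- mice given control IgG or the antibody held 52.7 and 87.3 CPM of Cox17, 39.3 and 67.5 CPM of H2-Q4 and 455 and 1156 CPM of Rpl36, differences in the opposite direction, but 422 and 426 CPM of Gm10076. Whether library, pool or treatment sets them cannot be told apart. Of the genes that fell, 38 of 120 in CCL21+ mTEC-like cells, 43 of 159 in cTEC-like cells and 28 of 388 in Aire+ cells fell in at least 4 of the 6 classes. The level over all cells of the library also lay at least 2-fold lower for 85, 129 and 210 of them. Genes that changed in a single class numbered 7 up and 25 down for CCL21+ cells, and 87 up and 283 down for Aire+ cells.

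CCL21+ mTEC-like cells lost most of their Ccl11 and gained Stmn2. Ccl11 (ENSMUSG00000020676, GRCm38 chr11:82057823-82062955), the eosinophil attractant eotaxin, stood at 942 CPM (929 to 955) in WT-Control and 162 CPM (157 to 167) in WT-RANKL-Ab, a log2 ratio of -2.47 (-2.52 to -2.42), and it was detected in 1592 of 2854 cells in WT-Control and 485 of 3073 in WT-RANKL-Ab. Its level in thymocyte-like cells, which should lack it, was 18.0 and 1.25 CPM, far under that of the class in both libraries. Ccl8, a chemokine for monocytes and eosinophils, fell alongside it, from 55.2 to 5.0 CPM (-2.12, -2.23 to -2.01), but thymocyte-like cells held 93.4 and 0 CPM of it, in WT-Control more than the class itself. Stmn2 (ENSMUSG00000027500, GRCm38 chr3:8509360-8561606), a tubulin-binding protein best known from neurons, rose from 98.4 to 359 CPM (1.77, 1.70 to 1.83), with UMIs in 468 of 2854 cells in WT-Control and 1149 of 3073 in WT-RANKL-Ab. Further risers were the kinase-anchoring scaffold Akap12, at 7.90 to 36.4 CPM (1.37, 1.25 to 1.49), and Tppp3, a promoter of tubulin polymerisation, at 28.7 to 90.2 CPM (1.37, 1.27 to 1.48). The LIM-domain gene Crip3 went from 55.2 to 158 CPM (1.36, 1.28 to 1.45), the secreted protein gene Lgi2 from 5.81 to 29.4 CPM (1.32, 1.19 to 1.44), and the PDZ and RING finger gene Pdzrn4 from 14.2 to 47.7 CPM (1.25, 1.13 to 1.37). Stmn2 also passed 2-fold in cTEC-like (1.41), Aire+ (1.92) and cycling cells (3.18), but not in tuft-like cells (0.48), and over all cells stood at 41.2 and 210 CPM. Tppp3 passed it in progenitor-like (1.49), Aire+ (1.34) and cycling cells (1.22), but not in cTEC-like (0.73) and tuft-like cells (0.25). No cell held more than 4.21% of the UMIs of any of these 6 risers in either library. Thymocyte-like cells held 43.1 and 42.4 CPM of Akap12 and 190.5 and 31.2 CPM of Crip3, and at most 10.8 CPM of each of the 4 others, and Crip3 stood at 369 and 552 CPM over all cells, above its level in the class. The other leading falls included the calprotectin subunit S100a8, at 72.3 to 1.82 CPM (-2.80, -2.87 to -2.71), and the milk protein beta-casein Csn2, at 89.8 to 11.4 CPM (-2.22, -2.33 to -2.10). S100a8 also went from 630.0 to 30.5 CPM over all cells and from 503 to 1.25 CPM in thymocyte-like cells, and Csn2 from 799 to 94.4 and from 241 to 2.49 CPM. The calcium-binding protein gene S100g, at 63.1 to 5.19 CPM (-2.27, -2.37 to -2.15), and the acute-phase gene Saa3, at 63.0 to 5.56 CPM (-2.23, -2.34 to -2.12), behaved alike, with all-cell levels of 373 and 44.9 CPM and 471 and 29.3 CPM. S100a8 and Csn2 thus also fell in cells that should lack them, and the part of free RNA in these falls was not tested.

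Sums of Aire+, cTEC and thymocyte markers differed by under 2-fold in CCL21+ mTEC-like cells, while 6 single markers passed it. The Aire+ markers Cd52, Calcb and Aire fell, from 126 to 17.0 CPM (-2.33, -2.44 to -2.22), 39.1 to 5.98 CPM (-1.62, -1.73 to -1.5) and 37.3 to 7.62 CPM (-1.42, -1.54 to -1.30), and the cTEC markers Tbata, Psmb11 and Prss16 rose, from 196 to 637 CPM (1.65, 1.61 to 1.70), 5.23 to 32.9 CPM (1.5, 1.37 to 1.61) and 31.5 to 87.2 CPM (1.23, 1.12 to 1.33). All 7 Aire+ markers were detected in both libraries, 1 of them higher after the antibody, with summed levels of 549 and 435 CPM, medians over cells of 298 and 314 CPM, and Fezf2 as the most abundant gene. All 9 cTEC markers were higher, with sums of 2773 and 3811 CPM, medians of 2030.0 and 2559 CPM, and the cathepsin gene Ctsl as the most abundant. Of 12 thymocyte markers, led by the T cell receptor constant gene Trbc2, 9 were higher, with sums of 31.8 and 61.0 CPM and medians of 0 in both libraries. No marker of these 3 lists was at 0. Sums of some other marker lists passed 2-fold in these cells. Among them were enterohepatic markers, at 77.4 and 9.81 CPM with 0 of 7 higher, and erythroid markers, at 10.5 and 0.654 CPM with 1 of 6 higher. Muscle markers went the other way, at 5.62 and 13.8 CPM. The part of all these markers in the gene results was not tested.

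Among the 6 leading rises of progenitor-like cells were Atf3, Dusp1 and Phlda1, genes that respond to stress or growth signals. Atf3, a transcription factor induced by cell stress, stood at 23.3 CPM (11.6 to 41.7) in WT-Control and 127 CPM (109 to 147) in WT-RANKL-Ab, a log2 ratio of 2.04 (1.37 to 2.69). Dusp1, a phosphatase that turns off MAP kinases, went from 12.7 to 82.6 CPM (2.03, 1.25 to 2.69), and Phlda1, an early response gene, from 21.2 to 86.8 CPM (1.63, 0.93 to 2.30). These values rest on few cells in WT-Control, where the class held 69 cells: Atf3 was found in 7 of 69 cells in WT-Control and 31 of 224 in WT-RANKL-Ab, and Phlda1 in 7 of 69 cells in WT-Control and 62 of 224 in WT-RANKL-Ab. With classes called on all UMIs, Dusp1 came to 0.99 and Phlda1 to 0.83, both short of 2-fold, while Atf3 stood at 1.79. The other 9 leading genes came mostly from single cells. The secretory granule gene Resp18, at 10.6 to 164 CPM (3.08, 2.30 to 3.71), the muscle filament gene Des, at 0 and 42.4 CPM, and the airway secretory gene Bpifa1, at 14.8 to 107 CPM (2.24, 1.49 to 2.91), had 84.5%, 75.0% and 96.7% of their WT-RANKL-Ab UMIs in 1 cell. Des came to 0.01, Resp18 turned to -0.31 and Bpifa1 to -0.51 with classes called on all UMIs, and Bpifa1 to -1.14 at the higher minimum score. Leading genes that fell to 0 UMIs were the peptide gene Pyy, from 276 CPM, the club cell secretoglobin Scgb1a1, from 244, neurotensin Nts, from 238, pepsinogen Pgc, from 208, and S100a8, from 180.3 CPM. Between 76.8% for Nts and 98.3% for Scgb1a1 of their control UMIs sat in 1 cell, as did 80.9% of those of the protease inhibitor-like gene Wfdc17, which went from 367 to 0.706 CPM (-5.14, -5.24 to -4.73). Pgc came to 0.00 both at the higher minimum score and with classes called on all UMIs. Thymocyte-like cells held 916 and 1.25 CPM of Pyy and 39.5 and 0 CPM of Wfdc17, and all cells 169 and 7.42 CPM and 194 and 30.5 CPM.

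Aire+ markers in progenitor-like cells summed to 452 and 111 CPM, with 6 and 6 of 7 detected, 1 higher, Cd52 as the most abundant, Cd86 at 0 in WT-Control and Cd80 at 0 in WT-RANKL-Ab. Their median over cells was 0 in both libraries, so the sum came from a minority of the cells. CCL21+ markers summed to 5614 and 5216 CPM, with all 7 detected, 6 higher and Ccl21a the most abundant, and medians over cells of 1549 and 2083 CPM. The part of these cells in the gene results was not tested.

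Most of the leading rises of cTEC-like cells depended on how the class was called. Acta2, the smooth muscle actin, stood at 44.7 CPM in WT-Control against 148 CPM in WT-RANKL-Ab (log2 ratio 1.53, 1.26 to 1.81), and Tagln, an actin-binding protein of contractile cells, at 89.8 to 239 CPM (1.32, 1.11 to 1.53). Igfbp5, which binds insulin-like growth factors, went from 124 to 321 CPM (1.31, 1.12 to 1.49), and Fos, a subunit of the transcription factor AP-1, from 82.5 to 203 CPM (1.20, 0.99 to 1.43). Fos was found in 39 of 164 cells in WT-Control and 175 of 632 in WT-RANKL-Ab, and Igfbp5 also rose in CCL21+ (1.02), progenitor-like (1.06) and cycling cells (1.99). Stmn2, the riser of CCL21+ cells, went from 14.2 to 54.2 CPM (1.41, 1.04 to 1.75), and Jchain, which joins antibody units, from 1.05 to 18.6 CPM (1.37, 1.02 to 1.51) with 86.1% of its WT-RANKL-Ab UMIs in 1 cell. With classes called on all UMIs, 4 of these calls ended, at 0.46 for Acta2, 0.71 for Tagln, 0.70 for Igfbp5 and 0.72 for Fos, and Stmn2 came to 1.20. By the mean over cells Igfbp5 came to 0.71, Tagln to 0.99 and Jchain to 0.71, again short of 2-fold. Over all cells Acta2 stood at 331 and 962 CPM, Tagln at 267 and 803 CPM and Igfbp5 at 191 and 657 CPM, which are higher than in cTEC-like cells in each library. Among the 6 leading falls, S100a8 went from 562 to 1.45 CPM (-5.64, -5.75 to -5.48), its partner S100a9 from 199 to 0.968 CPM (-4.25, -4.35 to -4.08), and the neuropeptide gene Npy from 165 to 1.94 CPM (-3.87, -4.02 to -3.68). Single cells held 56.5%, 56.6% and 77.7% of the control UMIs of these genes. Sbpl, Scgb1a1 and the cytokine-like gene Cytl1 fell to 0 UMIs, from 101, 99.8 and 96.1 CPM, with 44.3%, 95.8% and 84.7% in 1 cell. At the higher minimum score Scgb1a1 came to -0.07 and Cytl1 to -0.14, and on full counts Cytl1 to -0.35 and Sbpl to -0.57, all under 2-fold.

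Aire+ markers were less abundant in the cTEC-like cells of WT-RANKL-Ab. All 7 were detected and 0 were higher, with sums of 585 and 193 CPM, medians over cells of 51.0 and 0 CPM, and Cd52 and Fezf2 as the most abundant in WT-Control and WT-RANKL-Ab. Of 12 thymocyte markers, all detected and led by Trbc2, 9 were higher, with sums of 798 and 888 CPM and medians of 0 in both libraries. CCL21+ markers, 7 of 7 higher and led by Ccl21a, had sums of 3784 and 4621 CPM and medians over cells of 758 and 1508 CPM, and Acta2 and Tagln are leading genes of the CCL21+ class. The part of other cells in the rises and falls was not tested.

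Among the leading rises of tuft-like cells were a noncoding RNA and genes of secreted, matrix and channel proteins. The long noncoding RNA AC191865.2 (ENSMUSG00000116389, GRCm38 chr16:3346350-3348370) stood at 68.3 CPM (58.3 to 79.5) in WT-Control and 232 CPM (216 to 249) in WT-RANKL-Ab, a log2 ratio of 1.63 (1.41 to 1.85), against 3.0 and 18.2 CPM over all cells. Cbln4, a secreted protein that organises synapses, went from 54.0 to 160.3 CPM (1.41, 1.17 to 1.66), and Col4a4, a basement membrane collagen chain, from 67.9 to 192 CPM (1.38, 1.15 to 1.60). Lrrc26, an auxiliary subunit of large-conductance potassium channels, went from 34.3 to 105 CPM (1.37, 1.08 to 1.65), the tubulin-modifying enzyme Ttll7 from 4.50 to 25.2 CPM (1.28, 0.89 to 1.58), and the transcription factor Klf2 from 31.9 to 86.9 CPM (1.21, 0.91 to 1.5). Cbln4 was found in 73 of 342 cells in WT-Control and 195 of 494 in WT-RANKL-Ab, and Col4a4 in 83 of 342 cells in WT-Control and 226 of 494 in WT-RANKL-Ab. Thymocyte-like cells held 0 and 2.49 CPM of Cbln4 and 32.3 and 149.5 CPM of Klf2, which also stood at 41.3 and 108 CPM over all cells. The 6 leading falls in tuft-like cells were of Saa3, at 218 to 18.3 CPM (-3.01, -3.28 to -2.73), the Paneth cell lysozyme Lyz1, at 95.3 to 4.09 CPM (-2.90, -3.14 to -2.59), Csn2, at 97.7 to 7.87 CPM (-2.59, -2.87 to -2.27), and 3 further genes. The pancreatic gene Reg1 and the embryonic globin Hba-x fell from 60.1 and 51.9 CPM to 0 UMIs, and the neuronal gene Pcp4 went from 52.8 to 0.945 CPM (-2.52, -2.64 to -2.25). Single cells held 93.9% of the control UMIs of Reg1, 96.9% of Hba-x, 72.1% of Pcp4 and 61.4% of Lyz1, against 21.8% of Saa3. Over all cells Saa3 stood at 471 and 29.3 CPM, Lyz1 at 289 and 65.1 CPM and Pcp4 at 167 and 7.01 CPM, and in thymocyte-like cells at 46.7 and 2.49 CPM, 61.1 and 2.49 CPM and 287 and 0 CPM. At the higher minimum score Pcp4 came to -0.74, short of 2-fold, and Hba-x, with its control cell gone, to 0.00. All 7 Aire+ markers were lower in WT-RANKL-Ab, with sums of 291 and 78.4 CPM, medians over cells of 92.4 and 0 CPM, none at 0 and Cd52 the most abundant, and their part was not tested.

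The few Aire+ mTEC-like cells that were found after the antibody had lower levels of several genes known from other tissues. The neuropeptide precursors Gal and Pomc went from 193 to 4.2 CPM (-3.84, -4.19 to -3.29) and from 255 to 15.7 CPM (-3.37, -3.82 to -2.88). Reg3b, an antimicrobial lectin of the gut, went from 160.0 to 4.2 CPM (-3.58, -3.93 to -3.03), and Dppa3, a germ cell and early embryo gene, from 213 to 12.6 CPM (-3.30, -3.76 to -2.80). Fam25c went from 181 to 10.5 CPM (-3.22, -3.67 to -2.70). Dcpp1, a salivary gland gene, stood at 83.2 CPM in WT-Control with UMIs in 88 cells, and at 0 UMIs in WT-RANKL-Ab, at least 26.4-fold lower at a floor of 3 UMIs. In WT-Control no cell held more than 23.3% of the UMIs of any of these 6 genes, and Dppa3 was found in 302 of 1606 cells in WT-Control and 6 of 168 in WT-RANKL-Ab. Over all cells Gal stood at 111 and 2.67 CPM and Dppa3 at 122 and 1.93 CPM, and in thymocyte-like cells at 71.9 and 0 CPM and 53.9 and 0 CPM. The leading rises were carried by a small number of cells. Ccl17 (ENSMUSG00000031780, GRCm38 chr8:94810453-94812036), a ligand of CCR4 on maturing thymocytes, went from 101 to 569.8 CPM (2.38, 2.24 to 2.51), with UMIs in 228 of 1606 cells in WT-Control and 20 of 168 in WT-RANKL-Ab and 49.2% of the WT-RANKL-Ab UMIs in 1 cell. Resp18, a secretory granule protein, was broader, at 215 to 1003 CPM (2.17, 2.07 to 2.27) with UMIs in 620 of 1606 cells in WT-Control and 62 of 168 in WT-RANKL-Ab. Reg1 went from 34.3 to 224 CPM (2.40, 2.19 to 2.60), the skin gene Hrnr from 6.27 to 61.9 CPM (2.14, 1.80 to 2.46), the substance P precursor Tac1 from 30.9 to 161 CPM (2.06, 1.82 to 2.29), and Sostdc1, an antagonist of BMP and Wnt signals, from 25.1 to 134 CPM (2.04, 1.78 to 2.29). Single cells held 93.9%, 66.1%, 64.1% and 47.7% of their WT-RANKL-Ab UMIs, and Tac1 came to 0.44 by the mean over cells and 0.76 with classes called on all UMIs.

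The class held 1606 and 168 cells and its median depth fell from 11164 to 2841 UMIs. All 9 cTEC markers, led by Tbata, were higher in these cells, with sums of 2758 and 4881 CPM and medians over cells of 1309 and 3075 CPM. Of 7 CCL21+ markers, led by Ccl21a, 6 were higher, with sums of 1399 and 1959 CPM and medians of 667 and 2451 CPM, and none of either list was at 0. Of 12 thymocyte markers 3 were higher, with sums of 78.1 and 96.5 CPM, Trbc2 the most abundant and Rag1, Ptcra and Themis at 0 in WT-RANKL-Ab. The part of depth and of these markers in the gene results was not tested.

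Cycling cells after the antibody leaned toward CCL21+ and cortical classes and away from the Aire lineage. By the best class among the others, CCL21+ cells made up 53 and 35 of the 293 and 76 cycling cells (18.1% and 46.1%), early Aire-lineage cells 93 and 7 (31.7% and 9.21%), Aire+ cells 32 and 1, and cTEC-like cells 2 and 8. The summed cTEC markers, with 9 of 9 higher, none at 0 and Ctsl the most abundant, stood at 1029 and 8907 CPM, and their medians over cells at 534 and 1896 CPM. CCL21+ markers, 5 of 7 higher and led by Ccl21a, summed to 3536 and 10969 CPM, with medians of 1350.1 and 9139.9 CPM. Aire+ markers, 0 of 7 higher, led by Fezf2 and with Cd86 at 0 in WT-RANKL-Ab, summed to 1689.7 and 437 CPM, with medians of 1473 and 350.2 CPM. Thymocyte markers, 12 of 12 higher, led by Trbc2 and with Themis at 0 in WT-Control, summed to 29.5 and 1006 CPM, with medians of 0 in both libraries. The gene differences of cycling cells therefore stand beside a different mix of cells, whose part was not tested.

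Among single genes, the intestinal transcription factor Cdx1 fell from 274 to 25.6 CPM (-2.99, -3.44 to -2.54), and Hdc, the enzyme that makes histamine, from 212 to 13.4 CPM (-3.25, -3.72 to -2.73). Cdx1 was found in 204 of 293 cells in WT-Control and 11 of 76 in WT-RANKL-Ab. Csn2, S100a8, Lyz1 and S100g fell from 177, 127, 101 and 121 CPM to 4.45, 4.45, 2.23 and 5.57 CPM. Stmn2 rose here too, from 25.4 to 311 CPM (3.18, 2.93 to 3.42), as did Igfbp7, a secreted binding protein of insulin-like growth factors, from 5.64 to 111 CPM (2.96, 2.63 to 3.24). Fxyd2, a regulator of the sodium pump, went from 29.2 to 464 CPM (3.60, 3.38 to 3.82), and the methyltransferase gene Inmt, a leading gene of cTEC-like cells, from 0.752 to 121 CPM (3.61, 3.39 to 3.72), with 36.5% and 59.6% of the WT-RANKL-Ab UMIs in 1 cell. Inmt came to 0.17 with classes called on all UMIs. A single cell held 99.7% of the UMIs behind Bpifa1, at 4.51 to 1426 CPM (6.63, 6.41 to 6.81), and 67.2% of those of the airway gene Wfdc2, at 97.2 to 1174 CPM (3.47, 3.32 to 3.61), and at the higher minimum score these turned to -0.21 and -0.08.

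In the gene lists that follow, a value after the interval is that of an alternative under which a member was no longer past 2-fold, named by TMM, the mean over cells, a minimum score of 0.35, 2000 UMIs, 13% mitochondrial UMIs, full counts or shared barcodes left out. Counts of members in cycling cells stand beside 6.31% of all genes higher and 4.04% lower in that class, more than in the other classes. The shares of all genes higher and lower were 0.171% and 0.931% in CCL21+ and 1.23% and 1.66% in progenitor-like cells. They were 0.146% and 1.65% in cTEC-like, 0.240% and 1.11% in tuft-like and 0.805% and 2.84% in Aire+ cells. Of the genes of RANK signalling, the receptor gene itself stayed under 2-fold in CCL21+ and Aire+ cells, while its target Tnfrsf11b fell in CCL21+ cells. Tnfrsf11a (ENSMUSG00000026321, GRCm38 chr1:105780718-105847981), which encodes RANK, stood at 74.9 CPM in WT-Control against 79.5 CPM in WT-RANKL-Ab (log2 ratio 0.08, -0.01 to 0.17) in CCL21+ mTEC-like cells and at 113 to 124 CPM (0.12, -0.14 to 0.37) in Aire+ cells. Tnfsf11, which encodes RANKL, had under 50 UMIs in every class, with 0.840 and 0.905 CPM over all cells and 10.8 and 15 CPM in thymocyte-like cells. Tnfrsf11b, the decoy receptor osteoprotegerin that is a known target of RANK in mTECs, went from 14.4 to 2.15 CPM (-1.01, -1.11 to -0.89, -0.89 by cell mean, -0.96 at 0.35, -0.99 at 2000 UMIs, -0.91 on full counts) in CCL21+ cells and from 39.7 to 6.68 CPM (-1.57, -2.02 to -0.99) in cycling cells. Cd40 stood at 38.5 to 24.3 CPM (-0.50, -0.62 to -0.38) in CCL21+, 80.4 to 39.9 CPM (-0.86, -1.11 to -0.60) in cTEC-like and 205 to 137 CPM (-0.54, -0.79 to -0.31) in Aire+ cells, and fell from 125 to 31.2 CPM (-1.72, -2.15 to -1.29) in cycling cells. The lymphotoxin gene Ltb fell in cycling cells as well, from 96.5 to 24.5 CPM (-1.63, -2.09 to -1.16), and Lta rose in Aire+ cells, from 29.2 to 73.5 CPM (1.09, 0.77 to 1.41, -0.02 by cell mean, 0.97 at 0.35, 0.74 on full counts). Of the list of RANK, CD40 and lymphotoxin ligands, receptors and adaptors, these were the members past 2-fold: 0 rose and 1 fell of 13 measured in CCL21+, 1 rose and 0 fell of 14 measured in Aire+ and 0 rose and 3 fell of 12 measured in cycling cells, and none of 11 in cTEC-like, 10 in tuft-like and 2 in progenitor-like cells. The medians were 0.08 (0.00 with TMM) beside 0.07 over all genes in CCL21+, -0.04 beside 0.10 over all genes in cTEC-like, -0.05 beside 0.10 over all genes in tuft-like, -0.09 beside -0.04 over all genes in Aire+ and -0.34 beside 0.12 over all genes in cycling cells.

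NF-kB subunits and feedback targets, the transcription factors downstream of these receptors and the genes that restrain them, had members past 2-fold in cycling cells, where 4.04% of all genes were lower, and none in the other 5 classes. In cycling cells 0 rose and 3 fell of 14 measured: the inhibitor Nfkbie, at 148 to 52.3 CPM (-1.34, -1.72 to -0.97, -0.94 by cell mean), the ubiquitin-binding Tnip1, at 117 to 47.9 CPM (-1.13, -1.52 to -0.75, -0.82 on full counts), and the ubiquitin ligase Birc2, at 134 to 61.2 CPM (-1.01, -1.37 to -0.66, -0.72 on full counts, -0.99 without shared barcodes), with a median of -0.50 beside 0.12 over all genes. Relb, the subunit of the noncanonical arm that mTECs require, stood at 121 to 165 CPM (0.42, 0.35 to 0.49) in CCL21+, 241 to 253 CPM (0.07, -0.12 to 0.25) in Aire+ and 214 to 157 CPM (-0.42, -0.67 to -0.18) in cycling cells. Nfkbia, the main inhibitor of the canonical arm, stood at 829 to 914 CPM (0.14, 0.11 to 0.17) in CCL21+ and 2437 to 3501 CPM (0.52, 0.47 to 0.57) in Aire+ cells. None of 15 members changed in CCL21+, cTEC-like, tuft-like and Aire+ cells, nor of 9 in progenitor-like cells. Medians were 0.03 (-0.05 with TMM) beside 0.07 over all genes in CCL21+, -0.29 beside 0.13 over all genes in progenitor-like, 0.04 (-0.01 with TMM) beside 0.10 over all genes in cTEC-like, -0.13 (0.05 by the mean over cells) beside 0.10 over all genes in tuft-like and 0.25 beside -0.04 over all genes in Aire+ cells.

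MHC class II genes, which present peptides to CD4 T cells, lay lower in tuft-like cells, where 0 rose and 2 fell of 9 measured and the median was -0.78 beside 0.10 over all genes. The invariant chain Cd74 went from 2512 to 1217 CPM (-1.04, -1.10 to -0.98, -0.96 by cell mean, -0.75 at 0.35) and H2-DMb2, a subunit of the peptide-loading complex, from 69.9 to 24.9 CPM (-1.20, -1.5 to -0.89, -0.89 at 0.35), while H2-Aa, at 975 to 528 CPM (-0.87, -0.96 to -0.78), stayed under 2-fold. By the mean over cells 1 of the 9 fell in tuft-like cells. Markers of some other classes were also lower in tuft-like cells (0 of 7 higher for Aire+, 0 of 7 for CCL21+ and 1 of 7 for microfold markers). Their sums were 291 and 78.4 CPM for Aire+, 2461 and 1589 CPM for CCL21+ and 814 and 492 CPM for microfold markers. Sums that were higher included early Aire-lineage markers, at 328 and 364 CPM, and cTEC markers, at 421 and 544 CPM. Progenitor markers, at 134 and 182 CPM, and muscle markers, at 72.8 and 179 CPM, were higher as well. The part of these markers in the MHC class II levels was not tested. In Aire+ cells the median was 0.42 beside -0.04 over all genes with summed levels of 63585 and 86221 CPM, and none of 10 passed 2-fold. None passed it in the remaining classes, with medians of -0.03 (0.04 by the mean over cells) beside 0.07 over all genes in CCL21+, -0.18 beside 0.13 over all genes in progenitor-like, -0.09 (0.03 by the mean over cells) beside 0.10 over all genes in cTEC-like and -0.41 beside 0.12 over all genes in cycling cells, over 10, 9, 10 and 10 members. With TMM 3 fell in cycling cells. MHC class I and immunoproteasome genes had medians of -0.44 beside 0.07 over all genes in CCL21+, -0.50 beside 0.13 over all genes in progenitor-like, -0.32 beside 0.10 over all genes in cTEC-like and -0.54 beside 0.10 over all genes in tuft-like cells. Psme2, a subunit of the proteasome activator, was the member past 2-fold in 4 classes, at 375 to 177 CPM (-1.04, -1.10 to -0.99, -0.99 by cell mean, -0.97 at 0.35) in CCL21+, 261 to 103 CPM (-1.26, -1.59 to -0.92, -0.83 at 0.35) in progenitor-like, 337 to 143 CPM (-1.18, -1.33 to -1.04) in cTEC-like and 768 to 257 CPM (-1.54, -1.73 to -1.36) in cycling cells. In cycling cells the peptide transporter gene Tap2 rose from 57.7 to 132 CPM (1.07, 0.78 to 1.35, 0.79 with TMM, 0.95 by cell mean), and the median was 0.44 beside 0.12 over all genes. In progenitor-like cells 3 members fell with TMM and 3 by the mean over cells. Counts were 0 rose and 1 fell of 12 measured in CCL21+, 0 rose and 1 fell of 11 measured in progenitor-like, 0 rose and 1 fell of 12 measured in cTEC-like and 1 rose and 1 fell of 12 measured in cycling cells. None of 11 in tuft-like cells and of 12 in Aire+ cells passed 2-fold, and the Aire+ median was 0.00 (-0.05 with TMM, -0.25 by the mean over cells) beside -0.04 over all genes.

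Of a fixed list of 16 tissue-restricted antigens, genes that Aire and its partners open in mTECs, none rose past 2-fold in the 6 classes, although such genes outside the list did, among them Reg1 and Hrnr in Aire+ cells. In Aire+ cells 0 rose and 6 fell of 15 measured, where 2.84% of all genes were lower, and the median was -0.81 beside -0.04 over all genes. The insulin gene Ins2 went from 53.8 to 0 CPM (-2.67, -2.67 to -2.20), the casein Csn1s1 from 13.9 to 1.05 CPM (-1.11, -1.25 to -0.58, -0.93 on full counts, -0.99 without shared barcodes), the trefoil factor Tff3 from 288 to 78.7 CPM (-1.75, -2.05 to -1.45), S100a9 from 603 to 179 CPM (-1.70, -1.91 to -1.49), the fatty acid-binding Fabp9 from 189.8 to 55.6 CPM (-1.61, -1.95 to -1.27) and the fibrinogen chain Fgb from 27.2 to 0 CPM (-1.90, -1.90 to -1.42). Csn2, which fell in the 5 other classes, stood at 1582 to 1217 CPM (-0.38, -0.46 to -0.29) in Aire+ cells. Outside the Aire+ class 0 rose and 4 fell of 9 measured in CCL21+ cells (median -0.93 beside 0.07 over all genes), 0 rose and 4 fell of 5 measured in tuft-like cells (-2.06 beside 0.10 over all genes) and 0 rose and 5 fell of 6 measured in cycling cells (-2.06 beside 0.12 over all genes). With genes at 0 UMIs set to their bound and no CPM added, the medians were -4.22, -4.70 and -3.24. The higher minimum score brought the tuft-like median to -0.80. All 3 measured members fell in progenitor-like cells (Csn2, S100a8 and Sst) and all 3 in cTEC-like cells (Csn2, S100a8 and S100a9). Thymocyte-like cells held 0 and 0 CPM of Tff3 and 57.5 and 0 CPM of S100a9, and the part of free RNA outside the Aire+ class was not tested.

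The list of chemokines and scavengers, which does not hold the Ccl11 and Ccl8 that fell in CCL21+ cells, split by class. In Aire+ cells, which attract maturing thymocytes and dendritic cells, 3 rose and 2 fell of 12 measured and the median was 0.29 (-0.01 by the mean over cells) beside -0.04 over all genes. The CCR4 ligand Ccl22 went from 69.2 to 229.8 CPM (1.60, 1.4 to 1.80) and Ccl5, an attractant of T cells and monocytes, from 843 to 2797 CPM (1.72, 1.66 to 1.78, 0.38 by cell mean), beside the rise of Ccl17, while Xcl1, a dendritic cell attractant, went from 33.3 to 4.2 CPM (-1.61, -1.96 to -1.05, -0.97 at 0.35, 0.36 on full counts) and the neutrophil attractant Cxcl1 from 62.8 to 18.9 CPM (-1.33, -1.79 to -0.86, -0.24 on full counts). Ccl5 went the other way in 4 classes, from 137 to 48.9 CPM (-1.32, -1.41 to -1.23) in CCL21+, 91.2 to 21.2 CPM (-1.70, -2.23 to -1.14) in progenitor-like, 83.4 to 21.1 CPM (-1.59, -1.88 to -1.28) in tuft-like and 79.7 to 28.9 CPM (-1.20, -1.65 to -0.76, -0.86 by cell mean) in cycling cells. Over all cells it stood at 628 and 216 CPM, and in thymocyte-like cells at 86.2 and 4.98 CPM. Cxcl10, an interferon-induced attractant of T cells, fell from 689 to 280.4 CPM (-1.27, -1.31 to -1.22) in CCL21+ cells and from 139.9 to 22.4 CPM (-2.21, -2.49 to -1.93) in tuft-like cells, and its relative Cxcl9 from 53.6 to 8.87 CPM (-1.75, -2.04 to -1.45, -0.66 at 0.35, -0.83 on full counts) in cTEC-like cells, where Xcl1 fell from 39.4 to 0.161 CPM (-2.28, -2.32 to -2.11). The CCR7 ligand Ccl19 fell in tuft-like cells, from 32.3 to 6.61 CPM (-1.35, -1.67 to -0.98, just under 2-fold on full counts), and stood at 249.9 and 260.4 CPM in CCL21+ cells. Counts were 0 rose and 2 fell of 12 measured in CCL21+, 0 rose and 1 fell of 4 measured in progenitor-like, 0 rose and 2 fell of 8 measured in cTEC-like, 0 rose and 3 fell of 5 measured in tuft-like and 0 rose and 1 fell of 7 measured in cycling cells. The medians were -0.43 beside 0.07 over all genes in CCL21+, -0.45 beside 0.10 over all genes in cTEC-like, -1.35 beside 0.10 over all genes in tuft-like and 0.08 (-0.21 with TMM) beside 0.12 over all genes in cycling cells.

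Of the costimulatory and checkpoint ligands, a single member passed 2-fold in CCL21+ cells and 3 did in cycling cells. Pdcd1lg2, the PD-1 ligand PD-L2, went from 32.0 to 9.06 CPM (-1.14, -1.26 to -1.01) in CCL21+ cells, where 0 rose and 1 fell of 7 measured (median -0.25 beside 0.07 over all genes). In cycling cells 1 rose and 2 fell of 5 measured (median 0.00 (-0.20 with TMM, 0.28 by the mean over cells) beside 0.12 over all genes): Cd83, which stabilises MHC class II and marks cTECs, went from 6.39 to 49.0 CPM (1.85, 1.43 to 2.22, just under 2-fold by cell mean, -0.02 on full counts), the ICOS ligand Icosl from 102 to 16.7 CPM (-2.07, -2.54 to -1.56) and the costimulatory ligand Tnfsf9 from 13.2 to 1.11 CPM (-1.06, -1.22 to -0.48). By the mean over cells none rose in cycling cells. None of 7 in Aire+ (median 0.05 beside -0.04 over all genes), 3 in cTEC-like, 2 in tuft-like and 1 in progenitor-like cells passed 2-fold. Of the thymopoietic cytokines and growth factors, Il7, the survival factor of early thymocytes, rose in Aire+ cells, from 37.8 to 90.2 CPM (1.07, 0.77 to 1.36, 0.53 by cell mean, 0.80 on full counts), and in cycling cells, from 76.5 to 199 CPM (1.27, 1.03 to 1.51, 0.98 with TMM, 0.96 by cell mean), and stood at 193 to 315 CPM (0.68, 0.62 to 0.73) in CCL21+ and 209 to 261 CPM (0.31, 0.16 to 0.46) in cTEC-like cells. Kitl, the ligand of Kit on early progenitors, went from 11.5 to 39.0 CPM (1.19, 0.74 to 1.62, 0.98 with TMM, 0.78 by cell mean) in cycling cells, and the epithelial cytokine Tslp from 20.4 to 3.15 CPM (-1.21, -1.52 to -0.65) in Aire+ cells. Igf1 fell in tuft-like cells, from 45.8 to 8.19 CPM (-1.62, -1.93 to -1.26), and in cycling cells, from 56 to 12.2 CPM (-1.57, -2.05 to -1.03). Counts were 1 rose and 1 fell of 11 measured in Aire+, 2 rose and 1 fell of 7 measured in cycling and 0 rose and 1 fell of 8 measured in tuft-like cells, and none passed 2-fold of 11 in CCL21+, 8 in cTEC-like and 3 in progenitor-like cells. The medians were 0.13 (-0.13 by the mean over cells) beside -0.04 over all genes in Aire+, -0.24 beside 0.12 over all genes in cycling, -0.03 beside 0.10 over all genes in tuft-like, -0.05 beside 0.07 over all genes in CCL21+ and -0.10 beside 0.10 over all genes in cTEC-like cells.

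AP-1 and other immediate early genes, which respond within minutes to growth signals and stress, had medians above that of all genes in 5 classes and below it in CCL21+ cells. For AP-1 the medians were -0.19 beside 0.07 over all genes in CCL21+, 0.44 beside 0.13 over all genes in progenitor-like, 0.32 beside 0.10 over all genes in cTEC-like, 0.31 beside 0.10 over all genes in tuft-like, 0.33 beside -0.04 over all genes in Aire+ and 0.51 beside 0.12 over all genes in cycling cells. Single members passed 2-fold: Atf3 rose in progenitor-like cells and fell from 112 to 40.9 CPM (-1.26, -1.36 to -1.17) in CCL21+ cells, and Fos rose in cTEC-like cells. That is 1 of 7 in progenitor-like, 1 of 10 in CCL21+ and 1 of 9 in cTEC-like cells, with none of 9 in tuft-like and 10 in Aire+ cells. Among the other immediate early genes 3 rose and 0 fell of 16 measured in progenitor-like cells: Dusp1, the antiproliferative Btg2, at 174 to 395 CPM (1.14, 0.82 to 1.47, 0.83 by cell mean, 0.84 at 0.35, 0.95 on full counts), and the matricellular gene Cyr61, at 146 to 309 CPM (1.03, 0.68 to 1.39, 0.95 with TMM, 0.72 at 0.35, 0.52 on full counts). Klf2 rose in CCL21+ cells, from 35.7 to 98.7 CPM (1.25, 1.15 to 1.35), as in tuft-like cells, and Btg2 in cTEC-like cells, from 82.0 to 191 CPM (1.12, 0.91 to 1.35, 0.88 at 0.35). In cycling cells 5 rose and 2 fell of 16 measured, with Klf2 at 15 to 112 CPM (2.29, 1.96 to 2.61) and the stress gene Gadd45b at 225 to 60.1 CPM (-1.75, -2.10 to -1.40), beside Zfp36l1, Btg2, Cyr61 and Sgk1 higher and Ier5 lower. Counts were 1 rose and 0 fell of 21 measured in CCL21+, 1 rose and 0 fell of 17 measured in cTEC-like, 1 rose and 0 fell of 18 measured in tuft-like and 0 rose and 0 fell of 18 measured in Aire+ cells. The medians were -0.25 beside 0.07 over all genes in CCL21+, 0.48 beside 0.13 over all genes in progenitor-like, 0.32 beside 0.10 over all genes in cTEC-like, 0.29 beside 0.10 over all genes in tuft-like, 0.19 beside -0.04 over all genes in Aire+ and 0.41 beside 0.12 over all genes in cycling cells.

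Of the identity factors of thymic epithelium, 3 rose past 2-fold in cycling cells. Foxn1, the master regulator of the lineage, stood at 31.1 to 55.3 CPM (0.67, 0.56 to 0.78) in CCL21+, 140.3 to 134 CPM (-0.06, -0.25 to 0.13) in cTEC-like and 61.7 to 87.1 CPM (0.44, 0.14 to 0.73) in Aire+ cells. Pax1, Pax9 and the stem cell factor Trp63 rose in cycling cells, from 54.0 to 139 CPM (1.22, 0.94 to 1.5, 0.94 with TMM, 0.84 by cell mean, 0.83 on full counts), 41.2 to 144 CPM (1.59, 1.30 to 1.87) and 33.5 to 83.5 CPM (1.10, 0.75 to 1.44, 0.84 with TMM, 0.75 by cell mean, 0.84 at 0.35). With TMM 1 of these 3 passed 2-fold. In that class 3 rose and 0 fell of 10 measured, and none passed 2-fold of 12 in CCL21+, 8 in progenitor-like, 10 in cTEC-like and 8 in tuft-like cells. The medians were 0.16 beside 0.07 over all genes, 0.27 beside 0.13 over all genes, 0.17 beside 0.10 over all genes and 0.11 (-0.02 by the mean over cells) beside 0.10 over all genes in these 4 classes, 0.44 beside -0.04 over all genes in Aire+ and 0.35 beside 0.12 over all genes in cycling cells. In the Notch pathway, a regulator of TEC progenitors, the target genes Hes1 and Hey1 rose in cycling cells, from 23.9 to 90.2 CPM (1.56, 1.22 to 1.90) and from 12.6 to 76.8 CPM (1.94, 1.57 to 2.29), and the median was 0.89 beside 0.12 over all genes over 6 members. Hey1 also went from 43.5 to 98 CPM (1.01, 0.92 to 1.11, 0.94 with TMM, 0.97 at 0.35) in CCL21+ cells, and the median over 10 was 0.27 beside 0.07 over all genes. None passed 2-fold of 8 in cTEC-like (median 0.34 beside 0.10 over all genes), 7 in progenitor-like (0.01 (-0.07 with TMM) beside 0.13 over all genes), 8 in Aire+ (0.13 beside -0.04 over all genes) and 4 in tuft-like cells. Of the lineage regulators of mimetic cells, Sox8, of microfold cells, and Myog, of muscle, rose in tuft-like cells, from 18.0 to 50.4 CPM (1.11, 0.76 to 1.45, 0.55 by cell mean, 0.99 on full counts) and from 55.2 to 137 CPM (1.17, 0.92 to 1.42), 2 of 8 measured (median -0.09 beside 0.10 over all genes). Insm1, of neuroendocrine cells, fell from 104 to 24.5 CPM (-1.72, -2.18 to -1.26, -0.76 by cell mean) in cycling cells, 1 of 4. None of 11 in CCL21+ (median -0.05 beside 0.07 over all genes), 13 in Aire+ (-0.07 beside -0.04 over all genes), 3 in cTEC-like and 1 in progenitor-like cells passed 2-fold.

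**Figure D2:**
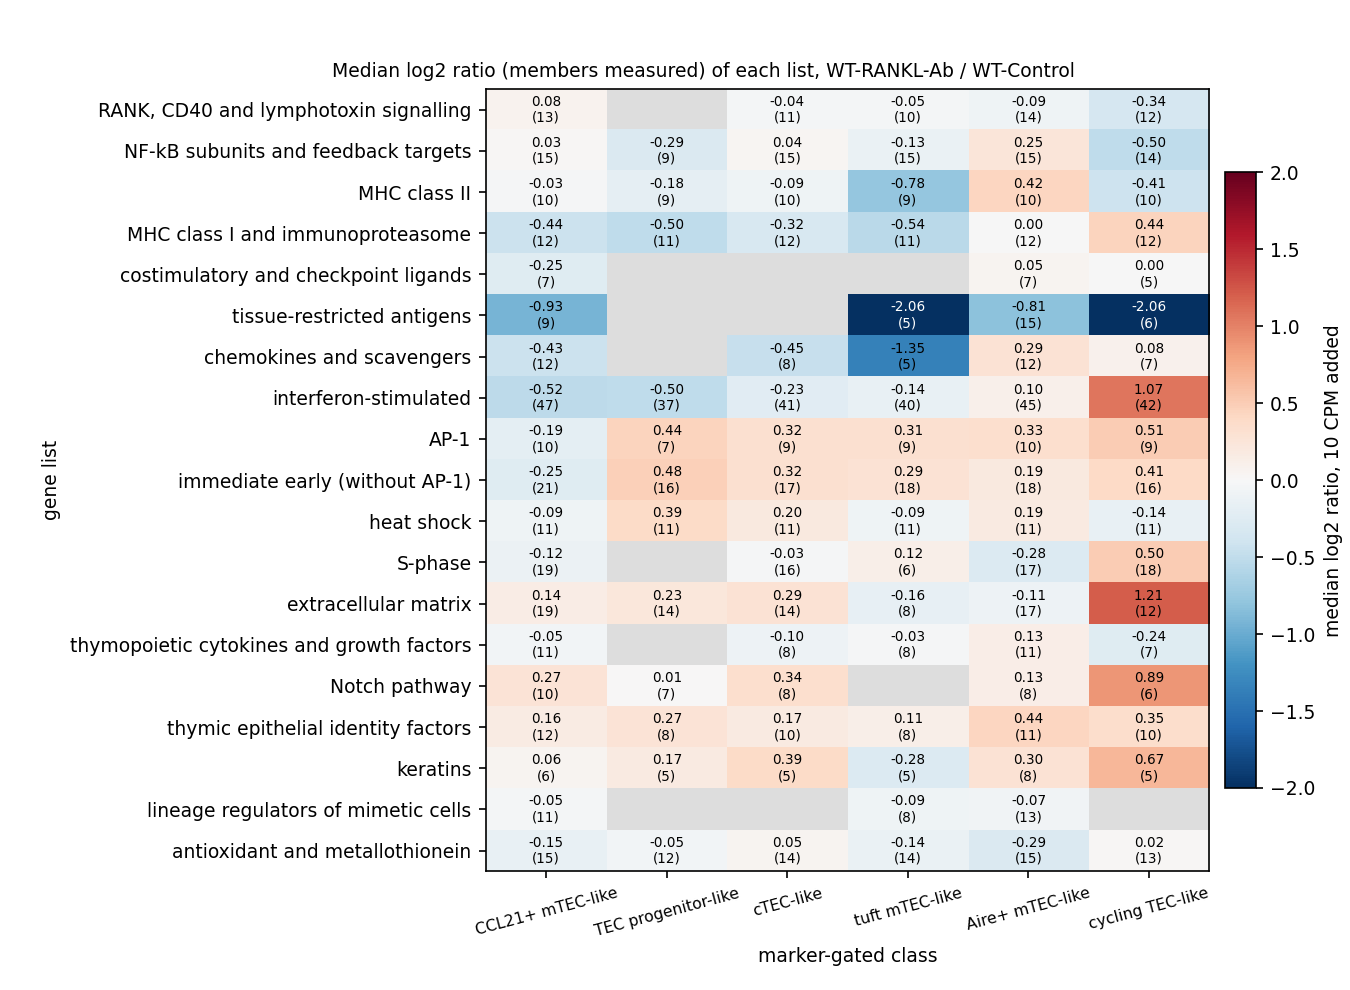
Median log2 ratio, WT-RANKL-Ab over WT-Control with 10 CPM added, of each gene list by class, for lists with at least 5 measured members. Interferon-stimulated genes stand at -0.52 in CCL21+ mTEC-like cells and at 1.07 in cycling cells (0.78 with TMM).

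Interferon-stimulated genes, the antiviral program that mTECs switch on without infection through their own interferons, lay lower in CCL21+ and progenitor-like cells and higher in cycling cells. In CCL21+ cells 0 rose and 7 fell of 47 measured, where 0.931% of all genes were lower. The median was -0.52 beside 0.07 over all genes, and Ifit1, Ifit3, Ifit3b, Isg15, Irf7, Xaf1 and Zbp1 were the members that fell. Isg15 (ENSMUSG00000035692, GRCm38 chr4:156199424-156200818), a ubiquitin-like modifier, stood at 1294 CPM (1278 to 1309) in WT-Control and 437 CPM (428 to 446) in WT-RANKL-Ab, a log2 ratio of -1.54 (-1.58 to -1.51). Irf7, the transcription factor that amplifies interferon production, went from 348 to 145 CPM (-1.20, -1.26 to -1.15), and Ifit3, which binds viral RNA complexes, from 352 to 154 CPM (-1.14, -1.20 to -1.08). In progenitor-like cells 0 rose and 10 fell of 37 measured, where 1.66% of all genes were lower, and the median was -0.50 beside 0.13 over all genes. Among those that fell were Isg15, at 1396 to 458 CPM (-1.59, -1.74 to -1.43), and Ifit3, at 320.2 to 88.3 CPM (-1.75, -2.08 to -1.42). Isg15 fell in 2 more classes, from 385 to 129.9 CPM (-1.5, -1.64 to -1.36) in cTEC-like and from 342 to 139 CPM (-1.24, -1.40 to -1.08) in tuft-like cells, where 0 rose and 2 fell of 41 measured (median -0.23 beside 0.10 over all genes) and 0 rose and 1 fell of 40 measured (-0.14 beside 0.10 over all genes). Aire+ cells had 1 rise and 1 fall of 45 measured, Oasl2 at 109 to 269 CPM (1.23, 1.04 to 1.41, 0.98 by cell mean, 0.88 on full counts) and Rsad2 at 20.2 to 4.2 CPM (-1.09, -1.45 to -0.53, -0.75 by cell mean, -0.20 on full counts), with a median of 0.10 (-0.07 by the mean over cells) beside -0.04 over all genes. In cycling cells 23 rose and 0 fell of 42 measured, and the median was 1.07 beside 0.12 over all genes, with Isg15 at 152 to 399.6 CPM (1.34, 1.16 to 1.51, 0.76 by cell mean, 0.27 at 0.35), Irf7 at 42.3 to 114 CPM (1.24, 0.93 to 1.54, 0.97 with TMM, 0.81 by cell mean, 0.41 at 0.35) and the guanylate-binding protein gene Gbp2 at 14.7 to 55.7 CPM (1.41, 1.00 to 1.80). There TMM left 16 higher and a median of 0.78, the mean over cells 12 and 0.76, and the higher minimum score a median of 0.43. Sums of CCL21+ and cTEC markers were also higher in the cycling cells of WT-RANKL-Ab. CCL21+ cells of WT-RANKL-Ab held 437 CPM of Isg15, against 152 in cycling cells of WT-Control. The part of the mix of cells in the interferon-stimulated levels was not tested. Over all cells Isg15 stood at 499 and 294 CPM, and in thymocyte-like cells at 165 and 74.8 CPM.

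**Figure D3:**
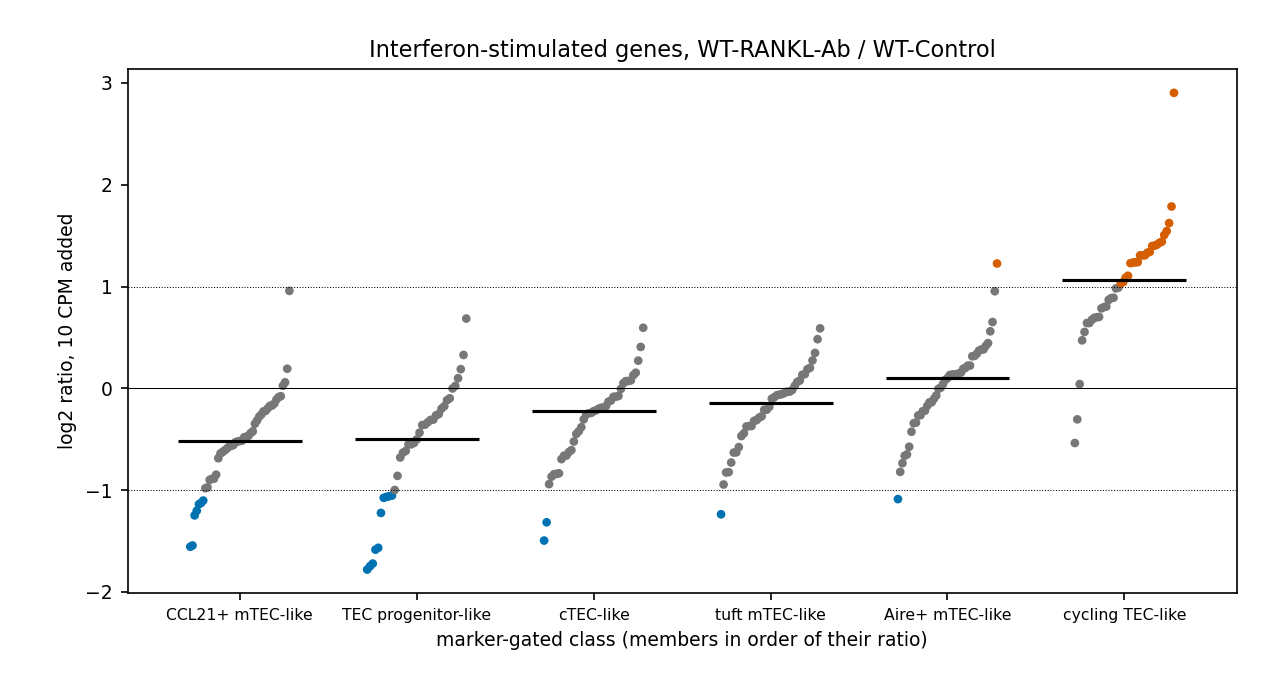
Log2 ratios, WT-RANKL-Ab over WT-Control with 10 CPM added, of interferon-stimulated genes by class. Isg15 is at -1.54 in CCL21+ mTEC-like cells and 1.34 in cycling cells.

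In CCL21+ mTEC-like cells 43 of the 47 measured members of this list had log2 ratios below 0, and 7 fell past 2-fold. Over all genes of the class the median was 0.07, and 0.931% fell past 2-fold. After these values were seen, promoters of the list were searched on both strands for GAAA, 2 bases of any kind and GAAA again. This motif is the core of the element that interferon-activated factors bind. Windows of 250 bases before to 50 after the start, from RefSeq on GRCm38.p6, matched 35 of the 48 genes. The motif was in 19 of these (54.3%) and in 943 of all 27025 promoters (3.49%). A match is a description of letters and not a site. The promoters below belong to 3 of the genes that fell, chosen to show windows with several matches and with none: Isg15, at chr4:156200769-156201068 on the minus strand, had 3 matches, Ifit3, at chr19:34583279-34583578 on the plus strand, had 2, and Irf7, at chr7:141266375-141266674 on the minus strand, had 0. Capitals mark the motif.
Isg15: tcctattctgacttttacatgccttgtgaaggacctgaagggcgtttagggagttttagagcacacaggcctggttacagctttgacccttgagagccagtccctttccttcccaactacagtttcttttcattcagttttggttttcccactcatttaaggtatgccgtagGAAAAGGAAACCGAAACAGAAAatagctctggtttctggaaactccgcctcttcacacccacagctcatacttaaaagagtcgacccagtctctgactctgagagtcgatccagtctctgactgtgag
Ifit3: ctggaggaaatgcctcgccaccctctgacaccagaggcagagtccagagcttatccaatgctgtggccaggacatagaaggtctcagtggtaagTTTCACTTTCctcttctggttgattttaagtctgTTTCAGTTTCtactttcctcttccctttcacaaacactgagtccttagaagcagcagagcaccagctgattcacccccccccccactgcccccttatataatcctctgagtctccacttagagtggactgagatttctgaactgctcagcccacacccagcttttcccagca
Irf7: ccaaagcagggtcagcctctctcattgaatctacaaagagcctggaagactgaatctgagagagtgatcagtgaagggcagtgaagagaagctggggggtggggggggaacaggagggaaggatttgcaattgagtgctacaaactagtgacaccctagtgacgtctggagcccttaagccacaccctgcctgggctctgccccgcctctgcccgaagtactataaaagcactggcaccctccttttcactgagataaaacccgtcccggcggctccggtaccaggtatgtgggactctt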

How the data were processed

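Transcripts were counted in droplet libraries of sorted thymic epithelial cells. The deposited values are whole UMI counts per gene and barcode of called cells, made by the authors with Fastp and Cell Ranger, version 5.1 by the submitters' notes and 5.0.1 by the file header. The labels name kit chemistry v2 and the paper v3.1. Members and gene lists were chosen with earlier results of these data known, and the score limits were set after seeing the data.

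Cells of 200 or more genes and up to 25% mitochondrial UMIs were kept and thinned to 1000 UMIs (seed 1), which left out 570 and 492 cells. A class score is the mean over its markers of the log level per 10000 UMIs, divided by its 99th percentile and held to at most 1. At least 2 markers had to be detected (3 on full counts), and cycling, thymocyte and thymocyte plus cTEC calls took precedence. The 19 gene lists are those whose results are given, and some of their members are not reported here. Symbols with several IDs took the ID with the most UMIs, and Ccl21a shares UMIs with near-identical copies.

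In each of 6 classes the 6 largest rises and 6 largest falls were named, leaving out gate markers, ribosomal, mitochondrial, predicted and receptor segment genes, beside any list member. Exact intervals were computed, by Clopper-Pearson where a share is given, by Poisson counts where a level is given and by the conditional binomial where a ratio is given. With 1 library a group no test between groups was run. Alternatives were 1 CPM added, no minimum or 100 UMIs, TMM factors, the mean over cells, a score of 0.35, cells with at least 2000 UMIs, a mitochondrial limit of 13% and, for shares, thymic epithelial classes as denominator or full-count calls. Full-count calls for genes and leaving out shared barcodes were chosen after seeing the data. Intervals were tested on simulated counts drawn from the Poisson and binomial models that they assume. The simulation held no differences between cells, so it could not test intervals of genes whose UMIs sat in few cells. The tools were edgeR 4.0.16 under R 4.3.3, and pandas 2.3.3, scipy 1.17.1, numpy 2.4.6 and matplotlib 3.10.9 under Python 3.11.15, with GENCODE coordinates on GRCm38.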

Additional observations from a re-analysis of the deposited data

How the results depend on the processing

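No paired analysis was possible because each group was a single library of pooled mice, so only processing choices were varied. For shares, 72 values under an alternative lay within the counting interval of the value reported, and the 10 others kept their direction. On full counts the log2 ratio was 0.55 for CCL21+, -1.84 for cycling and -1.23 for early Aire-lineage cells, which passed 2-fold there alone. With at least 2000 UMIs it was 0.73 for CCL21+, -3.28 for Aire+ and -3.65 for enterohepatic-like cells. At the higher minimum score it was 0.79, -2.97 and, for ciliated cells, -4.56, and with thymic epithelial classes as denominator 0.48 for CCL21+ cells. The cause was not tested.

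In each direction 47 gene counts stayed within 1.5 times and 13 did not. With 1 CPM, genes higher and lower were 146 and 492 in CCL21+, 186 and 262 in cTEC-like, 134 and 181 in tuft-like, 513 and 2083 in Aire+, 1015 and 646 in cycling and 164 and 103 in progenitor-like cells. Progenitor-like cells had 28 and 47 at 100 UMIs, 128 and 353 without a minimum, 40 higher with TMM, 106 higher by the mean over cells and 17 higher on full counts. cTEC-like cells had 249 lower without a minimum, 32 higher by the mean over cells, and 80 and 90 lower at the higher score and on full counts. Tuft-like cells had 58 and 159 lower under the same choices, and cycling cells 282 and 561 with TMM. Fewer or more genes tested account for the changes with the minimum, and the cause of the others was not tested.

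Over all lists and alternatives 568 medians lay within the interval of the value reported and 86 did not. Tissue-restricted antigens in tuft-like cells came to -1.41 by the mean over cells, -4.67 with 1 CPM, -0.80 at the higher score and -2.16 on full counts, and chemokines there to -1.93 with 1 CPM. In cycling cells the antigens came to -2.18 with TMM, -4.58 with 1 CPM, -2.07 with at least 2000 UMIs and -2.08 on full counts, and interferon-stimulated genes to 0.78 with TMM, 0.76 by the mean over cells and 0.43 at the higher score. Of the leading genes, 5 values turned, list members aside: Resp18 (-0.31 on full counts) and Bpifa1 (-1.14 at the higher score, -0.51 on full counts) in progenitor-like cells, and Bpifa1 (-0.21) and Wfdc2 (-0.08) in cycling cells at the higher score. Each rested mostly on 1 cell. A further 211 moved and 216 did not. Depth limits the small classes: progenitor-like cells of WT-Control held 471515 UMIs and cycling cells of WT-RANKL-Ab 898427.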

Other observations

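Antioxidant genes and metallothioneins, the metal-binding scavengers, passed 2-fold in both directions, and several of the calls depended on the processing. Mt1 and Mt2 went from 278 to 121 CPM (-1.14, -1.20 to -1.07, -0.97 by cell mean, -0.99 at 0.35) and from 323 to 94.3 CPM (-1.67, -1.74 to -1.61) in CCL21+ mTEC-like cells, and the gut-type peroxidase Gpx2 from 46.2 to 13.3 CPM (-1.27, -1.39 to -1.15), 3 of 15 antioxidant genes measured (median -0.15 beside 0.07 over all genes). Mt2 fell also in tuft-like cells, from 77.3 to 29.3 CPM (-1.15, -1.44 to -0.86, -0.84 by cell mean, -0.39 at 0.35), and in cycling cells, from 741 to 302 CPM (-1.27, -1.45 to -1.10, -0.93 by cell mean). The secreted peroxidase Gpx3 fell from 532 to 189 CPM (-1.45, -1.69 to -1.20, -0.73 by cell mean, -0.29 on full counts) in progenitor-like and from 150.5 to 64.9 CPM (-1.10, -1.32 to -0.88, -0.63 by cell mean, -0.96 at 0.35, -0.71 on full counts) in tuft-like cells and rose from 109 to 234 CPM (1.03, 0.81 to 1.25, 0.74 with TMM, 0.62 by cell mean, 0.07 at 0.35) in cycling cells. By the mean over cells no antioxidant gene fell in tuft-like and progenitor-like cells. Counts were 0 rose and 1 fell of 12 measured in progenitor-like, 0 rose and 2 fell of 14 measured in tuft-like, 0 rose and 2 fell of 15 measured in Aire+ (Gpx2 and Gstm1), 2 rose and 2 fell of 13 measured in cycling and 0 rose and 0 fell of 14 measured in cTEC-like cells. The medians were -0.05 beside 0.13 over all genes, -0.14 beside 0.10 over all genes, -0.29 beside -0.04 over all genes, 0.02 (-0.14 with TMM) beside 0.12 over all genes and 0.05 (0.00 with TMM, -0.05 by the mean over cells) beside 0.10 over all genes in that order. Heat shock genes passed 2-fold for the chaperones Dnajb1 in progenitor-like cells, at 72.1 to 159 CPM (1.04, 0.57 to 1.53, 0.97 with TMM, 0.90 by cell mean), and Hspb1 in cycling cells, at 208 to 552 CPM (1.36, 1.21 to 1.51, 0.60 at 0.35), 1 of 11 in each and none of 11 in the other classes, beside 6.31% of all genes higher in cycling cells. Their medians were -0.09 beside 0.07 over all genes in CCL21+, 0.39 beside 0.13 over all genes in progenitor-like, 0.20 beside 0.10 over all genes in cTEC-like, -0.09 beside 0.10 over all genes in tuft-like, 0.19 (-0.01 by the mean over cells) beside -0.04 over all genes in Aire+ and -0.14 beside 0.12 over all genes in cycling cells.

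Extracellular matrix genes were higher in cycling cells, where 7 rose and 0 fell of 12 measured and the median was 1.21 beside 0.12 over all genes (0.99 with TMM). The basement membrane genes Col4a2, Lama3 and Lamb3 went from 26.0 to 77.9 CPM (1.29, 0.93 to 1.64, 0.86 at 0.35), 7.52 to 50.1 CPM (1.78, 1.36 to 2.16) and 15.6 to 50.1 CPM (1.23, 0.81 to 1.63, 0.97 by cell mean), and the collagen-binding Sparc from 41.2 to 185 CPM (1.93, 1.66 to 2.19). Elsewhere the glycoprotein gene Ecm1 fell in Aire+ cells, from 21 to 0 CPM (-1.63, -1.63 to -1.15), 1 of 17 (median -0.11 (0.09 by the mean over cells) beside -0.04 over all genes), and none passed 2-fold of 19 in CCL21+ (0.14 beside 0.07 over all genes), 14 in progenitor-like (0.23 beside 0.13 over all genes), 14 in cTEC-like (0.29 beside 0.10 over all genes) and 8 in tuft-like cells (-0.16 beside 0.10 over all genes). Among keratins, the epithelial filament proteins, Krt15 fell from 22.5 to 5.70 CPM (-1.05, -1.17 to -0.92) in CCL21+ cells and Krt19 rose from 78.5 to 205 CPM (1.28, 0.83 to 1.75, 0.42 on full counts) in progenitor-like cells, 1 of 6 and 1 of 5. In Aire+ cells Krt4 rose from 19.5 to 65.1 CPM (1.35, 1.01 to 1.68, -0.18 by cell mean, 0.48 on full counts) while Krt19, Krt15 and Krt13 fell, from 47.7 to 7.35 CPM (-1.73, -2.16 to -1.19), 21.6 to 0 CPM (-1.66, -1.66 to -1.18, -0.34 on full counts) and 39.0 to 1.05 CPM (-2.15, -2.29 to -1.62, 0.08 on full counts). In cycling cells Krt18 and Krt7 rose, from 614 to 1829 CPM (1.56, 1.47 to 1.64, 0.97 on full counts) and from 249 to 622 CPM (1.29, 1.14 to 1.43, 0.98 with TMM), and Krt13 fell from 29.5 to 4.45 CPM (-1.45, -1.84 to -0.86), 3 of 5. Keratin medians were 0.06 (-0.03 with TMM) beside 0.07 over all genes in CCL21+, 0.17 beside 0.13 over all genes in progenitor-like, 0.39 beside 0.10 over all genes in cTEC-like, -0.28 beside 0.10 over all genes in tuft-like, 0.30 beside -0.04 over all genes in Aire+ and 0.67 beside 0.12 over all genes in cycling cells, and none of 5 passed 2-fold in cTEC-like and tuft-like cells. S-phase genes, of DNA replication, passed 2-fold for Cdca7 in cycling cells, at 6.96 to 36.7 CPM (1.46, 1.01 to 1.88, 0.95 by cell mean, 0.57 on full counts), 1 of 18 (median 0.50 beside 0.12 over all genes), beside 6.31% of all genes higher. None passed of 19 in CCL21+ (-0.12 beside 0.07 over all genes), 16 in cTEC-like (-0.03 beside 0.10 over all genes), 6 in tuft-like (0.12 beside 0.10 over all genes), 17 in Aire+ (-0.28 beside -0.04 over all genes) and 1 in progenitor-like cells.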
